A study of Mus musculus with 2 samples.

Results

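The genes of vascular endothelial growth factor (VEGF) ligands and receptors were described in primary chondrocytes of the mouse, before mechanical loading and 24 h after it. The members were named by gene family and not by their values: the ligands Vegfa, Vegfb, Vegfc and Pgf, the receptors Kdr, Flt1 and Flt4, and the co-receptors Nrp1 and Nrp2. A probe was assigned to a member when the accession that the files give for it is a RefSeq transcript of that gene. This gave 9 of the 20660 genes with a RefSeq name, measured by 12 probes on 22 spots of each array.

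Primary chondrocytes came from C57BL/6J mice aged 6 days and were plated on silicon chambers with a fibronectin coat. The load was a cyclic tensile strain of 30 min, which stretched the cells by 10% at 0.5 Hz and began 48 h after plating. Total RNA collected before the strain and total RNA collected 24 h after it were each hybridised to 1 one-colour array of a single slide. No genetic change and no added agent are given for either group, and whether cells of several mice were pooled is not given in the sources used here. The study treats VEGF receptor 2, the product of Kdr, as a receptor through which the secreted protein gremlin-1 acts on chondrocytes, so the question put to the arrays was which of these genes were detected and how they differed after loading. With 1 array per time point there was no replicate error, and no test could be run. The control RNA was collected before loading, so that loading and the 24 h of culture that followed it cannot be told apart.

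VEGF ligands are secreted dimers that bind receptor tyrosine kinases on the cell surface, with neuropilins as co-receptors for some of them. Kdr is the main signalling receptor for Vegfa on endothelial cells, Flt1 binds Vegfa, Vegfb and Pgf, and Flt4 binds Vegfc and Vegfd. Cartilage is avascular, and in the growth plate Vegfa from hypertrophic chondrocytes draws in the vessels that precede bone.

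Levels are processed spot intensities in arbitrary units, and a ratio is the log2 intensity 24 h after minus before loading, once each array was scaled to its 75th percentile, an intensity of 466 on both arrays. A gene was represented by its brightest probe and was called detected when the scanner software flagged that probe as well above background on both arrays. The flag was set for 59.1% of the 59305 non-control spots of the array from before loading and for 57.7% of those of the array at 24 h, and 14231 genes (68.9%) were detected. The error printed beside a ratio combines the errors that the software gives for the spots on both arrays, and so covers within-array error only. For a probe with several spots it is their average error and was not reduced for their number. On bright spots the software's error was in near-fixed proportion to intensity, as with 1280 on 12800 for Kdr and 832 on 8320 for Nrp2 before loading. A multiple of the error is therefore not a spread measured between spots. Over the detected genes this error had a median of 0.20, while the ratios had a median of -0.01 and quartiles of -0.20 and 0.16.

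The RNA carried the markers of the cell type on the label. Col2a1, which encodes the main collagen of cartilage, had intensities of 500000 before loading and 475000 at 24 h. Acan, the main cartilage proteoglycan, had 71300 and 90000, and Sox9, the transcription factor that specifies chondrocytes, had 9970 and 11600. All 18 listed chondrocyte markers were detected and 0 passed 2-fold in either direction, with Matn1 at the highest ratio (0.56) and Col11a1 at the lowest (-0.82). Their median ratio was 0.06, and their summed intensity was 1.55e+06 before loading and 1.56e+06 at 24 h. In this and the other sums of intensity bright probes weigh most, so a sum is not an amount of RNA.

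Of the 9 VEGF members, 7 were detected on both arrays: Vegfa, Vegfb, Vegfc, Pgf, Kdr, Nrp1 and Nrp2. Flt1 was well above background before loading only, and Flt4 on neither array. Among the 7 detected members, 0 were past 2-fold higher and 0 past 2-fold lower at 24 h, where 0.668% of all detected genes were higher (95 genes) and 1.83% were lower (260 genes), so that a count of 0 lies near the background. The share of higher genes among all those past 2-fold was 26.8%, and it moved to 38.8% (130 higher, 205 lower) with scaling to the array medians and to 42.5% (138 higher, 187 lower) with scaling to spike-in controls. No member passed 2-fold under any of these scalings. Of the 7 ratios, 4 lay above 0 and 3 below, with a median of 0.18, and 3 were larger than 2 within-array errors, those of Vegfc, Vegfb and Nrp1. The count was 4 with the mean over a gene's detected probes, which adds Vegfa on the lower side, and 0 with normexp correction of the median spot intensity and an offset of 50 (Vegfc 0.20, Vegfb 0.40 and Nrp1 0.37). In settings added after seeing the data, it was 2, without Vegfc, with normexp correction of the median spot intensity but no offset, and 1, Vegfb, with the offset on the processed intensity alone. Of all detected genes, 16.4% had a ratio larger than 2 errors, and 10.7% with normexp correction and offset. The errors of the main setting were used in every alternative. An offset shrinks ratios and left these errors as they were, so it lowers such counts by its arithmetic. In RNA from a whole culture, fewer cells of a type and less RNA per cell cannot be told apart.

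**Figure D1:**
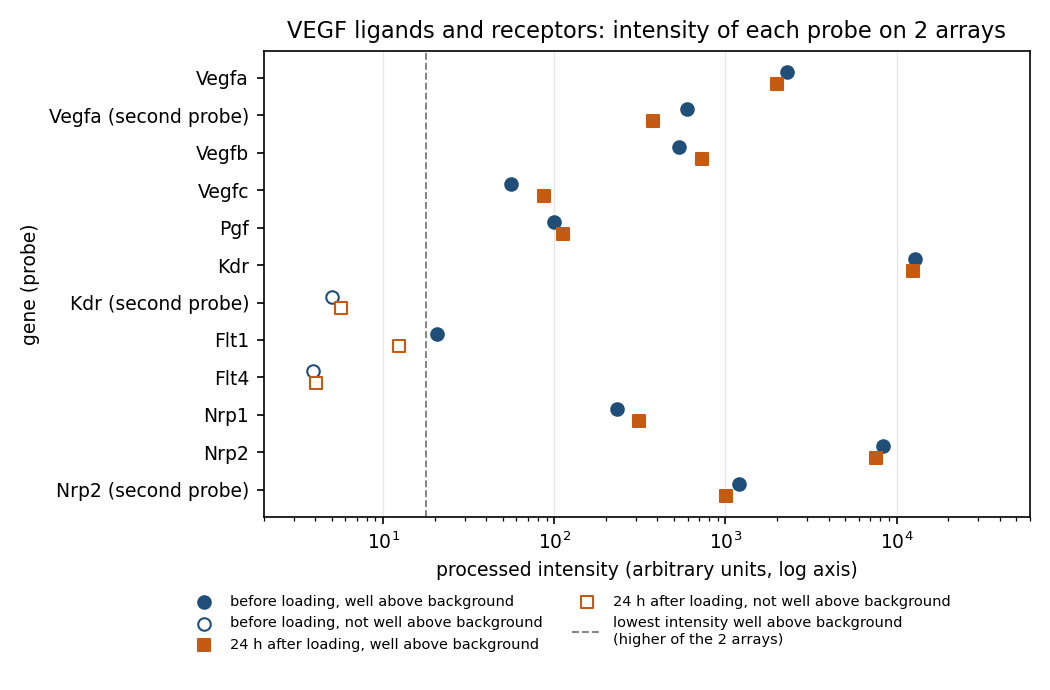
Processed intensity of each of the 12 probes of VEGF ligands and receptors (log axis, arbitrary units) before loading (circles) and 24 h after loading (squares), with 1 array per time point and spots of one probe averaged on the log2 scale. Filled symbols are probes well above background and open symbols are probes that are not. The brightest probe of Kdr lies near 12800 and 12400 while its other probe lies left of the dashed line at 17.8, the higher of the lowest intensities flagged as well above background on the 2 arrays.

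Among the ligands, Vegfa, the principal growth factor for endothelial cells, was measured by probes for different transcript variants. The probe for NM_001025250 had 2 spots, with intensities of 2280 and 2270 before loading and 2100 and 1900 at 24 h. Both spots were dimmer at 24 h, and the ratio of their mean was -0.19. This did not exceed the within-array error of 0.20, which is that of 1 spot. An error for the mean of both spots was not computed. The probe for NM_001025257 went from an intensity of 592 to 379, a ratio of -0.64 (error 0.20) or 1.56-fold lower. This was 3.13 errors, and 685 detected genes had a lower ratio. The probes of Vegfa thus shared their sign and differed in size, and the mean over both was -0.415. Whether the transcript variants differed was not tested.

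Vegfb, a ligand of Flt1, had intensities of 532 before loading and 725 at 24 h, a ratio of 0.45 (error 0.20) or 1.36-fold higher. A total of 952 detected genes had a higher ratio. Vegfc, a growth factor for lymphatic vessels, had the highest ratio of the members in the main setting, with intensities of 55.9 before loading and 86.8 at 24 h, a ratio of 0.64 (error 0.23) or 1.56-fold higher. A total of 403 detected genes had a higher ratio. Normexp correction with the offset gave 0.20, less than the error of the main setting. Normexp correction without the offset gave 0.30 and the offset alone 0.37, and under all 3 of these Vegfb had the highest ratio of the members. The other settings gave Vegfc ratios up to 0.75. Pgf, placental growth factor, had intensities of 99.8 and 113, a ratio of 0.18 that lay within its error of 0.22.

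Vegfd, the remaining ligand of the mouse VEGF family and not one of the 9 members, was printed on 10 spots. Their intensities ran from 804 to 927 with a median of 863 before loading, and from 604 to 760 with a median of 729 at 24 h. Each array flagged all 10 spots as well above background, and the ranges did not overlap. The ratio of their mean was -0.28 (error of 1 spot 0.20), and the SD of the ratio between the spots was 0.09. These spots share 1 RNA sample per time point and are not replicates of the loading. The ligands therefore did not share a sign: the ratios of Vegfb, Vegfc and Pgf lay above 0 and those of Vegfa and Vegfd below, under each of the 8 other settings too.

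Among the receptors, Kdr was measured by probes that differed in whether they were well above background. The brightest probe, A_55_P2094469, had 1 spot with intensities of 12800 before loading and 12400 at 24 h. Its ratio was -0.05 (error 0.20), and scaling to the array medians gave 0.05 and scaling to spike-in controls gave 0.07, so that the sign depended on the scaling. The level of Kdr at 24 h thus lay within the error of the level before loading on this probe.

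The other probe of Kdr, A_51_P316553, is listed under the same transcript, NM_010612, and was printed on 10 spots. The 9 spots without an outlier flag had intensities from 3.68 to 7.45 with a median of 5.04 before loading, and from 3.82 to 13.1 with a median of 4.66 at 24 h. The flag for well above background was set for 0 of the 9 on each array. The weaker flag for a positive and significant signal was set for 6 of the 9 before loading and for 3 at 24 h. The spot with an outlier flag had 75.9 before loading and 4.87 at 24 h. Detection of Kdr therefore rested on 1 spot of 1 probe, and which of the probes measures the transcript in these cells was not tested.

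Such a split was seen for other genes too, and less often for bright ones. Before loading, 95.5% of all probes were dimmer than the brightest probe of Kdr. Of 4574 genes with several probes and at least 1 of them detected, 879 (19.2%) also had a probe that was well above background on neither array. The share was lower among genes as bright as Kdr: of 531 genes with several probes whose brightest probe had at least the intensity of the Kdr probe before loading, 31 (5.84%) had such a probe. Neither count takes in how far apart in intensity the probes of a gene lay. Probes differ in brightness at equal amounts of transcript, so the intensities of the Kdr probes are not amounts of Kdr.

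Flt1, which encodes VEGF receptor 1 and a soluble form that binds VEGF away from the cell, had an intensity of 20.5 on the array from before loading, just above the lowest intensity flagged as well above background on that array (17.3). At 24 h it had 12.4 and was not well above background. For such a probe, the brighter array was set against the lowest intensity well above background on the dimmer array (17.8). This gave 1.15-fold, less than the error of the spot before loading (4.15 on the intensity of 20.5), so no difference is given for Flt1. Flt4, the receptor of lymphatic endothelium, had intensities of 3.87 and 4.07, on neither array well above background, and no ratio is given.

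The neuropilins bind both VEGF and class 3 semaphorins. Nrp1, the co-receptor that joins Kdr in binding Vegfa, had intensities of 232 before loading and 314 at 24 h, a ratio of 0.44 (error 0.21) or 1.36-fold higher. A total of 1001 detected genes had a higher ratio. Nrp2, which also serves as a co-receptor of Flt4, had 8320 and 7570 on the probe for NM_001077403, a ratio of -0.14 (error 0.20). The probe for NM_001077406 had 1200 and 1010, a ratio of -0.26 (error 0.20). Both probes of Nrp2 were dimmer at 24 h, the first by less and the other by more than its error, and the sign of neither changed under another setting.

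**Figure D2:**
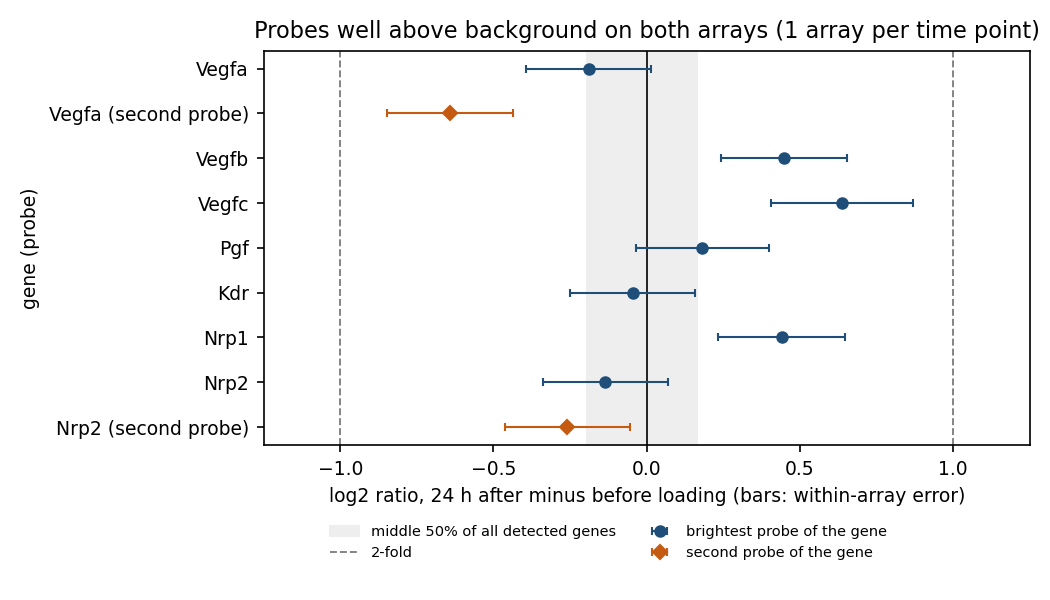
Log2 ratio (24 h after minus before loading) of the 9 probes of VEGF ligands and receptors that were well above background on both arrays, with bars for the within-array error and 1 array per time point. Circles are the brightest probe of each gene, diamonds are other probes, the grey band spans the quartiles of all detected genes (-0.20 to 0.16), and dashed lines mark 2-fold. All 9 probes lie inside the dashed lines, from -0.64 for the other probe of Vegfa to 0.64 for Vegfc, and the sign of Kdr flips with median and spike-in scaling.

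Vegfb, Vegfc and Nrp1 were each measured by 1 spot, and no check by other spots of the same probe was possible for them. Around the spots of the 9 detected probes, 23 to 30 other spots lay within 100 µm of each, and at most 2 of these had changed by more than 2-fold in one direction.

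Kdr and the other receptors are known mainly from endothelial cells, whose markers were read on the same arrays. Of 19 listed endothelial markers, 9 were detected, 1 was well above background on 1 array (Sox17, 25.2 before loading and 8.0 at 24 h) and 9 on neither. Cdh5, the cadherin of endothelial junctions, had intensities of 4.67 and 4.93, and with Tek, Tie1, Emcn, Esam, Cldn5, Robo4, Sox18 and Ptprb it was on neither array well above background. Pecam1, the endothelial adhesion molecule CD31, was detected with 111 before loading and 130 at 24 h, a ratio of 0.23 (error 0.22). The summed intensity of the list was 2860 before loading and 2540 at 24 h, most of it from Egfl7, a secreted protein of vessels, with 1630 and 1380. Ratios of the detected markers ran from -0.93 for Ecscr (-0.44 with normexp correction and offset) to 0.31 for Plvap, with a median of -0.24 and 0 past 2-fold. Of 5 lymphatic endothelial markers, 4 were on the array, and Prox1, Lyve1 and Reln were on neither of the arrays well above background. Pdpn, which is not limited to lymphatic vessels, was detected with 1900 and 2650, a ratio of 0.48 (error 0.20) that came to 0.82 as the mean over its detected probes. The summed intensity of the lymphatic list was 1910 and 2660.

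Macrophages express Flt1 and Nrp1, and of 14 listed monocyte and macrophage markers 13 were on the array and 10 were detected. Fcgr1 was well above background at 24 h only (20.8 and 28.8). Their median ratio was 0.15, and their summed intensity was 30300 before loading and 29400 at 24 h, most of it from the integrin Itgam with 25500 and 24800. Spi1, the transcription factor of the lineage, and Cx3cr1 were on neither array well above background. The 10 detected included Csf1r with 3650 before loading and 3290 at 24 h, Lyz2 (367 and 506) and Tyrobp (231 and 267). Ptprc, the leukocyte antigen CD45, was the 1 marker past 2-fold higher, with 20.9 and 46.1, a ratio of 1.14 (error 0.35) that came to 0.40 with normexp correction and offset. The share past 2-fold higher over all detected genes was 0.668%. The part of endothelial cells or macrophages in the levels of the VEGF members was not tested.

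Genes that act after Kdr were detected in these cells. Of 48 listed genes of VEGF receptor 2 signalling, 47 were detected, 0 passed 2-fold in either direction, and their ratios had a median of 0.04, with Prkcb, a protein kinase C, lowest (-0.76). All 13 class 3 semaphorins, plexins and the adaptor Gipc1, the partners of Nrp1 and Nrp2, were detected with 0 past 2-fold. Their median was -0.002, with Sema3b highest (0.77) and Sema3g lowest (-0.33). The median changed sign under 7 of 9 other settings, where the count includes the authors' deposited values, whose median rounds to 0.

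Gremlin-1 binds Kdr and also blocks bone morphogenetic proteins (BMPs). Grem1 had intensities of 2850 before loading and 8130 at 24 h, a ratio of 1.51 (error 0.20) or 2.85-fold higher. Grem1 was thus one of the 95 genes past 2-fold higher, whereas the ratio of Kdr lay within its error, and the difference between the genes was not tested. All 4 genes of gremlin-1 and its BMP partners were detected. Of these, 2 were past 2-fold higher, Grem1 and Bmp4 (786 and 1900, a ratio of 1.28), and 0 past 2-fold lower. Among all detected genes the shares were 0.668% and 1.83%. The study picked Grem1 from these arrays partly for its increase after loading, so its place in the count was known beforehand. The ratios of Bmp7 (1160 and 713, a ratio of -0.70) and Bmp2 (-0.04) lay below 0, so the median of 0.62 falls between genes of opposite sign.

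Vegfa is a target of the hypoxia-inducible factors (HIFs), and other HIF targets were read beside it. Of 27 listed targets other than VEGF genes, 26 were detected, 4 with a ratio above 0 and 22 below, and their median was -0.31, against -0.01 over all detected genes and -0.19 and -0.64 on the probes of Vegfa. The median of the list lay between -0.32 and -0.20 under the other settings. The part of HIFs in the level of Vegfa was not tested. Ankrd37 was more than 2-fold lower, with 323 before loading and 152 at 24 h, a ratio of -1.09 that came inside 2-fold with median scaling (-0.99), spike-in scaling (-0.975) and normexp correction with the offset (-0.90). Slc2a3, a glucose transporter, was just past 2-fold higher on a dim probe, with 40.6 and 81.3 and a ratio of 1.00, and came to 0.30 with normexp correction and offset. The list thus held 1 gene past 2-fold higher and 1 lower, beside 0.668% and 1.83% of all detected genes. Among 10 HIF subunits and oxygen sensors 9 were detected with 0 past 2-fold and a median of 0.04, while Arnt2 was well above background at 24 h only (15.3 and 19.2). The ratios ran from 0.29 for Hif3a to -0.95 for Egln3, a prolyl hydroxylase, which came to -0.68 with normexp correction and offset. The subunit gene Hif1a had 6570 and 6170, a ratio of -0.09, and Epas1, which encodes HIF-2α, had 7050 and 6850, a ratio of -0.04 that came to -0.355 as the mean over its detected probes. Both signs flipped with median and spike-in scaling.

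The sequences before a transcription start are shown for Vegfb, Vegfc and Nrp1, with a stretch of Vegfa for the HIF core. RefSeq windows on GRCm38.p6 from 250 bases before to 50 bases after a start were found for all 9 members, 11 windows in all. The HIF core ACGTG was searched on both strands and was found in 1 of the 11 windows, against 19.6% of 32851 such windows of the genome. Sequence more than 250 bases before a start was not searched, so a site further away would be missed. The match lay in the window of the downstream start of Vegfa, read on the reverse strand, and the window of its other start held none. That match lies inside the gene, since the stretch shown for it is coding sequence of the known VEGF-A protein, made from transcripts of the other start. The Sp1 core GGGCGG, or CCGCCC on the reverse strand, was found in 10 of the 11 windows and in all 9 members, against 35.7% of all windows, and it did not overlap the HIF core. It is thus shared by detected and undetected members, Kdr and Flt4 among them, and a match is a description of letters, not of a bound site. Capitals mark the core named in each line, and each sequence is read in the direction of its gene.
Vegfb, Sp1 core, chr19:6987652-6987901, minus strand: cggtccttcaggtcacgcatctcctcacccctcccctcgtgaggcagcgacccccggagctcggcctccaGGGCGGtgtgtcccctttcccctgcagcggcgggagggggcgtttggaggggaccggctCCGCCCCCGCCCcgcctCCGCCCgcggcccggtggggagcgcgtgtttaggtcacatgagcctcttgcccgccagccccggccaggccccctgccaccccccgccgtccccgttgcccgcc
Vegfc, Sp1 core, chr8:54077282-54077531, plus strand: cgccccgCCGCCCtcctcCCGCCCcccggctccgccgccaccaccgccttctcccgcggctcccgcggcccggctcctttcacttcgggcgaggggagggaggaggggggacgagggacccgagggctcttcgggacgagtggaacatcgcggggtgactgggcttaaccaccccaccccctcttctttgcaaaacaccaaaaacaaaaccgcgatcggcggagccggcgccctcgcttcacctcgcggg
Nrp1, Sp1 core, chr8:128358823-128359072, plus strand: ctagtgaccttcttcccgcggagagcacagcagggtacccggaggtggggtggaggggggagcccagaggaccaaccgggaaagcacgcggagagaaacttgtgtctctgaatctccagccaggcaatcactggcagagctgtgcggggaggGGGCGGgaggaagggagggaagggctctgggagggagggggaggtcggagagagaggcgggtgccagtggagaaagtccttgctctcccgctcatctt
Vegfa, HIF core, chr17:46025350-46025394, minus strand: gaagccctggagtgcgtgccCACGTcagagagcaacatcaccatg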

How the data were processed

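Total RNA from before and from 24 h after loading was measured on 1 SurePrint G3 Mouse Gene Expression array each. The number of cultures behind each RNA is not given in the sources used here. The authors deposited spot intensities from Agilent Feature Extraction 10.10.1.1, which had the background subtracted but were not normalized across the arrays. Their deposited value table holds the same intensities rounded (largest difference 0.497%, column medians 43.6 and 40.7), on a linear scale and not centred. Control spots and spots flagged as outliers on either array (141 and 138) were left out, spots of one probe were averaged on the log2 scale, and 0 spots were saturated. Of 55678 probes, 27235 matched an accession in a RefSeq table of GRCm38.p6, which served for names only, since the array design was annotated on mm9. The genes named are the 9 members with every probe, Vegfd, Grem1, Hif1a, Epas1, Pecam1, Cdh5, Col2a1, Acan and Sox9, and in each of 16 gene lists the detected genes past 2-fold, otherwise the highest and lowest ratios, with the brightest gene of a cell type list. A gene that this rule names in the list of VEGF receptor 2 signalling is not reported here. Other genes of the lists, undetected markers of cell types among them, were named after their values were seen. The members and lists were chosen with earlier results of these data known. Alternatives changed the scaling, the background correction (normexp on the median spot intensity, as the files hold no mean, with an offset of 50), the filter, the probe rule and the source of the values. As the normexp setting changes several choices at once, normexp without the offset and the offset on the processed intensity alone were added after seeing the data, and counts of settings leave these out. The step that calls genes was tested on simulated data. R 4.3.3 with limma 3.58.1 gave the normexp, quantile and cyclic loess values, and other steps used Python 3.11.15, numpy 2.4.6, pandas 2.3.3 and scipy 1.17.1.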

Additional observations from a re-analysis of the deposited data

How the results depend on the processing

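No paired analysis was possible because each time point has 1 array. Of 56 values of the 7 detected members under 8 alternatives, 2 moved by more than the within-array error: Vegfc to 0.20 with normexp correction and an offset of 50, and Vegfa to -0.415 with the mean over its probes, which takes in the other probe. The sign changed for Kdr alone, which lay between -0.05 and 0.07. Median scaling raised the median of all detected genes by 0.10 and spike-in scaling by 0.115, and every ratio moves with them. Counts of genes past 2-fold went from 95 higher and 260 lower to 38 and 118 with normexp correction and offset, 492 and 983 with no filter on dim probes and 192 and 507 with detection on at least 1 array, which add dim probes, and 23 and 95 when 2-fold had to be passed by more than 2 errors. The normexp setting changed the spot intensity used, the background model and the offset together. Of the settings added after seeing the data, normexp correction without the offset gave 0.30 for Vegfc and 66 higher and 187 lower genes, and the offset on the processed intensity alone, which by its arithmetic pulls ratios of dim probes toward 0, gave 0.37 and 41 and 137. The number of members counted as detected was 8 with the flag for a positive and significant signal or with detection on at least 1 array. Of 144 list medians under alternatives, 1 moved, that of the lymphatic markers. For 41 other values of named genes, 11 of 326 alternatives moved them, 9 of these with normexp correction and offset, and 0 of those past 2-fold changed sign. Signal over background limits Flt1, Flt4 and the other probe of Kdr: no probe dimmer than 17.3 before loading or 17.8 at 24 h was flagged as well above background.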

Other observations

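Other lists of genes around the VEGF system were read on the same arrays. Of 25 other angiogenic factors and receptors, 20 were detected, 0 passed 2-fold and the median ratio was 0.02, from 0.40 for Angptl4, a secreted regulator of lipoprotein lipase, to -0.71 for the dim probe of Angpt4, a ligand of Tek, which came to -0.25 with normexp correction and offset. Angpt2, another ligand of Tek, is not among the 20, since it was well above background before loading only (40.4 and 17.1). The count of 0 past 2-fold therefore does not cover Angpt2. Its intensity before loading was more than 2-fold above 17.8, the lowest intensity well above background at 24 h. Of 15 angiogenesis inhibitors of cartilage and matrix, 14 were detected with 0 past 2-fold and a median of 0.07. Tnmd, the tendon relative of chondromodulin, had the highest ratio (0.52, and 0.20 with normexp correction and offset) and Timp1, an inhibitor of metalloproteinases, the lowest (-0.74). All 10 hypertrophic chondrocyte markers, the cells known as a source of Vegfa in the growth plate, were detected with 0 past 2-fold higher and 3 past 2-fold lower, and the median was -0.38. Over all detected genes the shares were 0.668% higher and 1.83% lower. Of the 10 ratios, 8 lay below 0 and 2 above, those of Mmp13 (617 and 867, a ratio of 0.49) and Pth1r (0.06). Their summed intensity was 31000 before loading and 16900 at 24 h, a difference that came mostly from the bright probe of Col10a1. Col10a1, the collagen of hypertrophic cartilage and the brightest gene of the list, had 18900 and 6490 (ratio -1.54), Ihh, a secreted regulator of growth plate chondrocytes, 586 and 237 (-1.30), and Ibsp, a bone matrix protein, 259 and 61.9 (-2.06, and -1.36 with normexp correction and offset).

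Markers of further cell types were mostly within 2-fold, where 0.668% of all detected genes were past 2-fold higher and 1.83% past 2-fold lower. Of 10 mural cell markers 5 were detected with a median ratio of -0.06, which changed sign under 3 of 9 other settings, and a summed intensity of 55900 before loading and 51800 at 24 h. Rgs5, Des, Kcnj8, Abcc9 and Myh11 were on neither array well above background. The proteoglycan Cspg4 was the brightest (22800 and 21800), and Mcam was also bright (21800 and 22000). Ratios of the mural markers ran from 0.04 for Notch3 to -0.51 for Acta2. All 10 fibroblast and perichondrial markers were detected, with a median of 0.11, a summed intensity of 248000 and 254000, and Col1a2 as the brightest (85800 and 86600). Dpt, a matrix protein of dermis and perichondrium, was more than 2-fold higher, with 59.2 and 253 and a ratio of 2.10 that came to 1.34 with normexp correction and offset. Of 8 skeletal muscle markers 5 were detected, with a median of -0.13, a summed intensity of 1950 and 1720, and Acta1 as the brightest (1000 and 806). Myh8, the perinatal myosin heavy chain, had 77.4 and 172, a ratio of 1.15 that came to 0.63 with normexp correction and offset, and Ckm, Mylpf and Des were on neither array well above background. Of 6 osteoblast markers 5 were on the array and 4 were detected, with a median of -0.49, a summed intensity of 443 and 207, and Ibsp as the brightest and the 1 gene past 2-fold lower. Dmp1, a marker of osteocytes, was on neither array well above background. The part of these cell types in the levels of the VEGF members was not tested.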
